A study of Mus musculus with 6 samples.

Results

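The genes described here encode the proteins of the cytosolic ribosome, read in liver RNA of C57BL/6 mice, an inbred strain in wide laboratory use, all male and 71 weeks old. A row was taken when its symbol had the form of a cytosolic ribosomal protein (Rpl, Rps or Rplp with a number and an optional suffix). Rows named as pseudogenes (-ps) and the kinase row Rps6kl1 were left out, which gave 89 genes of the 56674 rows in the count table. They comprised 35 genes named for the small subunit, 51 for the large subunit and 3 for the P-stalk, the flexible arm of the large subunit that recruits translation factors. By kind, 76 were standard ribosomal proteins and 7 were protein-coding paralogs of one of them. The other 6 were annotated as pseudogenes and are called processed copies here. Rps4l, among these 6, is also in the paralog list used below. The control group held 3 samples from mice on normal chow, and the PP-MP group held 3 samples from mice on chow with polypropylene microplastic. No genotype, transgene or second agent is named for either group, and the strain, sex, age and tissue were shared. One label field, the treatment protocol, has PS-MP for all 6 samples, so the groups follow the titles and characteristics. The sources used here give no dose, particle size or exposure time, and the study asked whether prolonged exposure alters hepatic gene expression.

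Each ribosome carries 1 copy of most of these proteins, and cells make them in matched amounts. Their mRNAs are abundant, short and mostly begin with a run of pyrimidines at the cap, the terminal oligopyrimidine or TOP element, through which mTORC1 and LARP1 set how strongly they are translated. Control over ribosome output is therefore largely translational, and mRNA levels do not report it. In liver, ribosome content follows feeding and growth, and hepatocytes supply most of the RNA.

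Total counts ran from 68357478 (control 2) to 112566641 (control 3). TMM scaling factors, which correct for differences in RNA composition, were 0.882 to 0.957 in the controls and 1.03 to 1.12 in the PP-MP libraries. Ribosomal RNA rows took 1.17% to 11.3% of the counts of the controls, with the highest share in control 2, and 0.658% to 0.754% in the PP-MP libraries. Hepatocyte markers were abundant in every library (8 genes, summed level 68269 to 85461 CPM, that is, counts scaled to a common library size). Macrophage markers summed to 139 to 160 CPM in the controls and to 155 to 548 CPM in the PP-MP libraries. Since no label says that replicates came from separate animals, p-values here measure only the spread between these samples, which may be technical. In bulk liver, fewer cells of a type and less RNA per cell cannot be told apart.

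No ribosomal protein mRNA differed between the diets by the test. Of the 89 genes, 85 passed the filter on low counts and 4 did not. None of the 85 had an adjusted p below 0.05 (edgeR quasi-likelihood test with Benjamini-Hochberg adjustment over 18284 genes), against 2 of 18284 among all genes tested (0.0109%). DESeq2, which called 777 genes in the whole table (4.25%), and limma-voom, which called 1 (0.00547%), also called 0 of the 85. At an unadjusted p below 0.05 there was 1 ribosomal protein gene, Rpl22l1 (1.18%), against 13.9% of all genes, 8.05% higher and 5.81% lower in PP-MP. This contrast holds for TMM scaling, whose factors were below 1 in all controls and above 1 in all PP-MP libraries. With library totals alone, 16 of the 85 genes (18.8%), all fitted higher, were below that p, against 18.7% of all genes (16.8% higher), and none had an adjusted p below 0.05. The fitted change was above 0 for 45 genes and below 0 for 40. The median log2 fold change was 0.01 for the ribosomal protein genes and 0.03 for all genes.

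The estimates were also narrow. The 95% interval lay within 2-fold for 84 of 85 genes (98.8%), against 46.3% of all genes tested. The exception was Rpl32l, a processed copy at 0.143 to 0.592 CPM, whose interval ran from −1.57 to 0.96. Among 1181 other genes with mean levels in the span of the standard ribosomal proteins (70.1 to 478 CPM), 76.0% had such an interval, and their median log2 fold change was −0.20. The median standard error was 0.16 for the ribosomal protein genes, 0.19 for those other genes and 0.30 for all genes. The median half-width of the interval was 0.39 on the log2 scale, with no adjustment for the number of genes tested. Smaller changes in a single gene were therefore not detectable here, and larger ones could also miss the adjusted threshold. The largest fitted differences were 0.49 for Rpl22l1 and −0.40 for Rps27l. Of the 20 genes with the smallest p in either direction, all 20 kept their sign with any 1 library left out, but the fitted change of 16 moved by over 1.5 times.

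**Figure D1:**
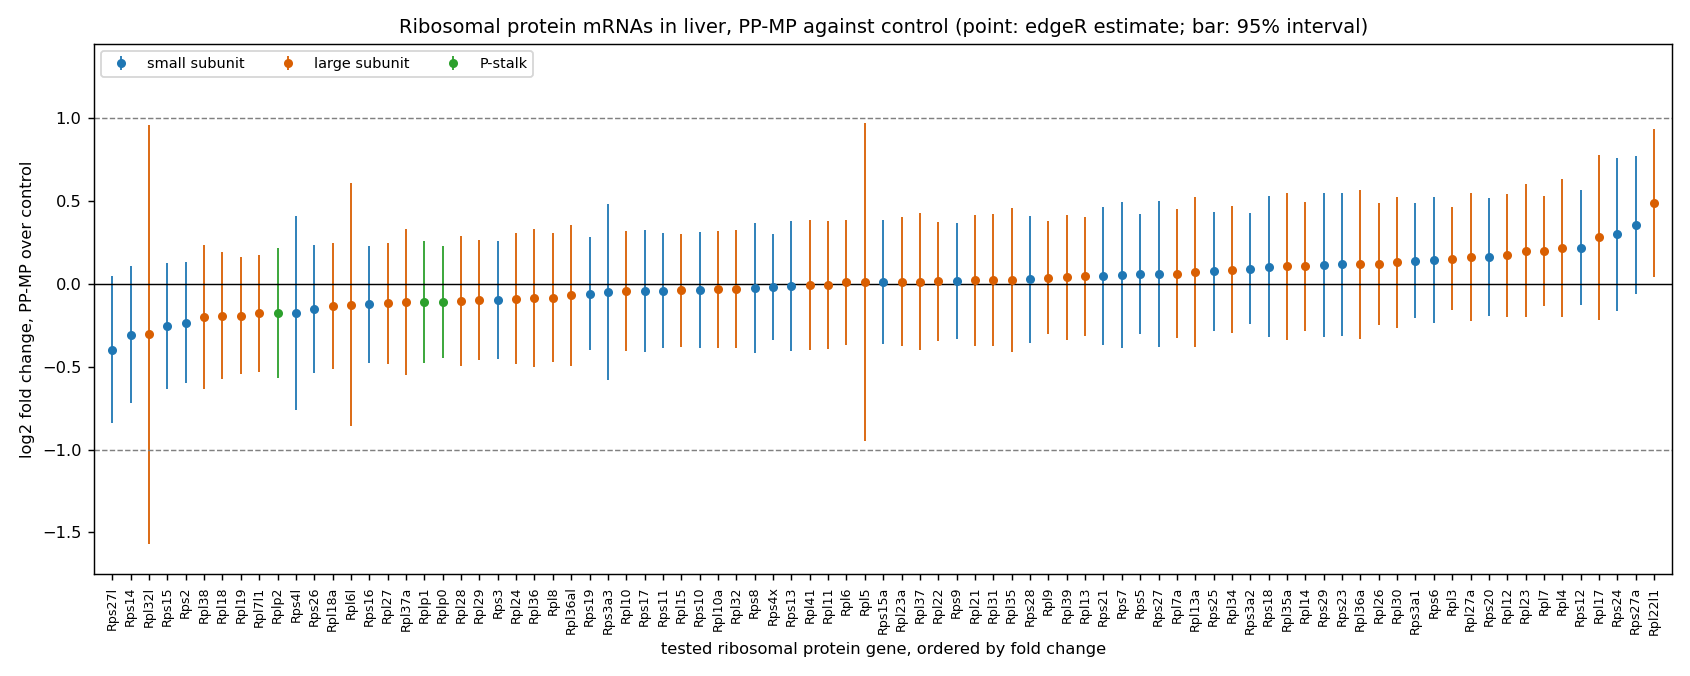
Log2 fold change of PP-MP over control (vertical axis) for each of the 85 tested genes, ordered by the estimate and coloured by subunit; points are edgeR estimates, bars are 95% intervals and dashed lines mark 2-fold. The estimates run from −0.40 (Rps27l) to 0.49 (Rpl22l1), and the bar of Rpl32l alone crosses a dashed line.

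In both diets the libraries differed from one another in the level of the whole set. The summed level of the 89 genes was 13615, 14463 and 14821 CPM in control 1, 2 and 3 (14300 ± 619, SD, n = 3). It was 14643, 12257 and 16012 CPM in PP-MP 1, 2 and 3 (14304 ± 1900, SD, n = 3). The group means were within 1 SD of each other, and the PP-MP group held both the lowest and the highest library. In PP-MP 3 all 85 tested genes lay above their own 6-library mean on the log2 scale, and in PP-MP 2 only Rpl3 did. In the other 4 libraries the number was 27, 49 and 57 (control 1, 2 and 3) and 57 (PP-MP 1). The median deviation of the genes from their own means was −0.06, 0.02 and 0.07 in the controls and 0.04, −0.21 and 0.17 in the PP-MP libraries. Scaling acts on all genes of a library alike, and its part in this pattern was not tested. Leaving out PP-MP 2 gave a median log2 fold change of 0.11 for the ribosomal protein genes, and leaving out PP-MP 3 gave −0.09.

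**Figure D2:**
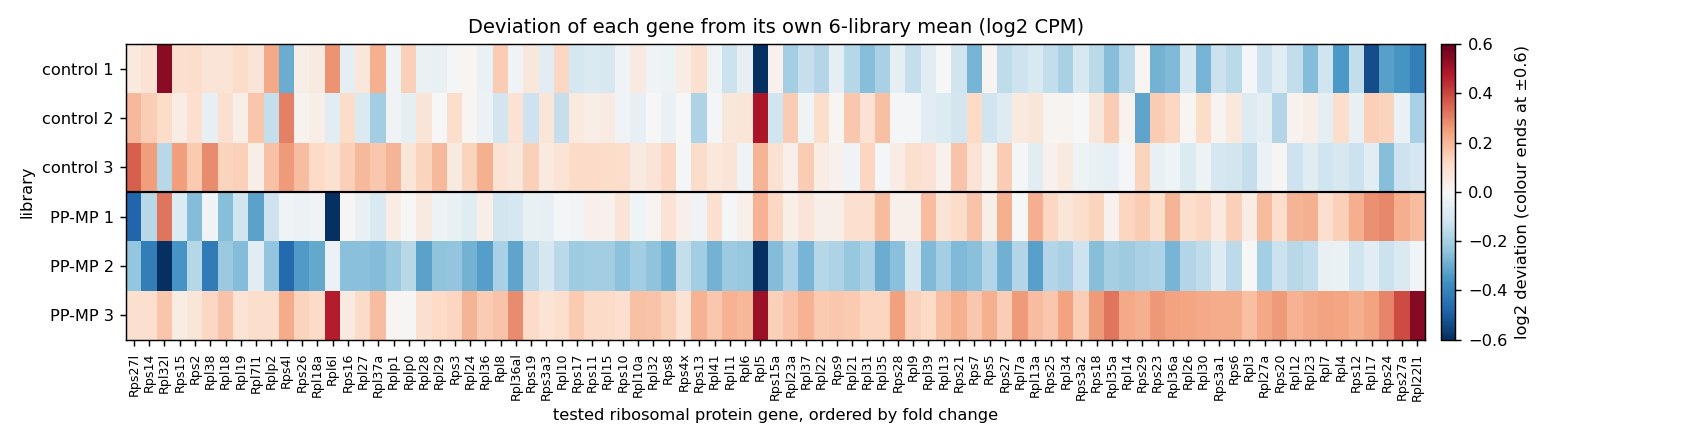
Deviation of each tested gene (columns, ordered by fold change) from its own mean over the 6 libraries (rows), in log2 CPM, with red above and blue below the mean and a line between the diets. The row of PP-MP 3 is red for all 85 genes, the row of PP-MP 2 is blue for all but Rpl3, and the 3 control rows lie between.

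The order of the genes by level changed little, with rank correlations of 0.968 to 0.994 between each library and the 6-library means. Across the 6 libraries a gene's log2 level correlated with the median deviation of the other genes with a median Pearson r of 0.83. This is a description over 6 libraries that share their scaling. The lowest values belonged to Rpl7l1 (0.16), Rpl6l (0.17), Rpl3 (0.31), Rps27l (0.35) and Rps2 (0.38). Counts on small subunit genes per count on large subunit and stalk genes were 0.642, 0.633 and 0.644 in the controls (0.640 ± 0.00576, SD, n = 3). They were 0.626, 0.634 and 0.630 in the PP-MP libraries (0.630 ± 0.0040, SD, n = 3), so the ranges overlapped.

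As a share of all raw counts, the genes took 1.30%, 1.28% and 1.38% in control 1, 2 and 3 (1.32% ± 0.053, SD, n = 3). In PP-MP 1, 2 and 3 the share was 1.61%, 1.38% and 1.65% (1.55% ± 0.148, SD, n = 3). PP-MP 2 lay level with control 3, the highest control, and the other PP-MP libraries lay above it. Over counts without ribosomal RNA rows the shares were 1.34%, 1.44% and 1.39% in the controls and 1.62%, 1.39% and 1.67% in the PP-MP libraries, and the groups then overlapped. This share uses raw totals, whereas the CPM above are scaled by the TMM factors.

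Levels between genes were compared as CPM per kilobase of transcript. The 76 standard genes were the bulk of the signal, and the highest were Rplp1 (648), Rpl41 (603), Rps27 (535), Rps2 (479) and Rps18 (476). Rplp1 is an acidic stalk protein, and Rpl41 is the smallest protein of the large subunit. The lowest tested genes were Rpl32l (1.0), Rps3a3 (1.8), Rpl6l (10.3), Rps4l (14.4) and Rps3a2 (14.8), all of them processed copies. Rpl10l, Rpl39l and Rps12l1 had 0 counts in all 6 libraries, which allows at most 3 counts per library, or 0.0267 to 0.0439 CPM of the raw totals (counting error only). For Rps12l1 this bounds assigned counts and not expression, since all its 50-base stretches also occur in Rps12. Rpl3l, the paralog of Rpl3 known from heart and skeletal muscle, had 0, 7 and 8 counts in the controls and 7, 0 and 16 in the PP-MP libraries.

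Pyrimidine runs, for which the class is known, were read from the listed start sites. RefSeq promoters (GRCm38.p6) were listed for 64 of the 89 genes, with 76 start sites. A run of at least 8 consecutive C or T bases touching positions −5 to +10 on the sense strand stood at 27 of them (35.5%), against 11.3% of 32851 listed promoters and 11.9% of those of tested genes. Windows from 40 bases before to 20 bases from the start site follow for genes on which the results turn, with the longest such run in capitals. They show a long run at Rpl4, Rps12, Rps24, Rps27 and at the paralogs Rpl22l1 and Rps27l, a shorter one at Rps2, and only a short one at the listed starts of Rpl5 and Rpl7l1. The Rpl5 window holds a longer run further upstream, outside the span counted. How well the listed starts mark the cap was not tested.
Rpl4, chr9:64173347-64173406, plus strand: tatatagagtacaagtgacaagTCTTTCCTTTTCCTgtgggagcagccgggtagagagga
Rps12, chr10:23787190-23787249, minus strand: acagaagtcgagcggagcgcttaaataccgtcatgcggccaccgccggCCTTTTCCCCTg
Rps24, chr14:24490638-24490697, plus strand: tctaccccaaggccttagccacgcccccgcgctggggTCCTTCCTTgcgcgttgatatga
Rps27, chr3:90213629-90213688, minus strand: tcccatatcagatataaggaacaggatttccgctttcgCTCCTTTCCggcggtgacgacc
Rps27l, chr9:66946046-66946105, plus strand: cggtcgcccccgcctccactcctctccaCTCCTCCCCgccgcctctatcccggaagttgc
Rpl22l1, chr3:28805468-28805527, plus strand: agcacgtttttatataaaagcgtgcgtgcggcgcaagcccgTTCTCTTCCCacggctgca
Rps2, chr17:24720023-24720082, plus strand: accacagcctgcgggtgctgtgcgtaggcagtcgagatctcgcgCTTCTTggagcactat
Rpl5, chr5:107900488-107900547, plus strand: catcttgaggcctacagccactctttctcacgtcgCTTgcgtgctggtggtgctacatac
Rpl7l1, chr17:46782637-46782696, minus strand: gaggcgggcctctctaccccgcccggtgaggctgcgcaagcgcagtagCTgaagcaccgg
For Rps24 and Rps27l, which have 2 listed starts each, the first is shown. In the 300-base promoters, CCGGAAG, a core bound by ETS factors such as GABP, was found on either strand in 34.2% of the 76, in 8.86% of all listed promoters and in 15.6% of those of tested genes. AAGATGG, a core of the YY1 motif, was found in 15.8%, 6.34% and 6.66%. TATAAA was found in 10.5%, below the 13.6% of all listed promoters and above the 8.31% of those of tested genes. The first 2 motifs can overlap by their shared AAG, and a match is a description, not a site. The 27 tested genes with a pyrimidine run at a listed start had a median log2 fold change of 0.04 (−0.40 to 0.49), and the 34 without one had 0.00 (−0.25 to 0.20).

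Among the 30 standard small subunit genes, 17 were fitted higher and 13 lower, with a median log2 fold change of 0.02 and a range of −0.31 to 0.36. Rps27a, which encodes ubiquitin fused to a small subunit protein, stood at 120, 149 and 141 CPM in control 1, 2 and 3 and at 179, 145 and 202 CPM in PP-MP 1, 2 and 3. PP-MP 2 lay below control 2, so the groups overlapped, and the log2 fold change was 0.36 (SE 0.17, adjusted p = 0.42). Rps24, one of the genes mutated in Diamond-Blackfan anaemia, stood at 128, 176 and 134 CPM in the controls and at 196, 147 and 197 CPM in the PP-MP libraries. Here too PP-MP 2 lay inside the control range, and the log2 fold change was 0.30 (SE 0.20, adjusted p = 0.52). Without control 2 it was 0.47, with an adjusted p of 0.24. Rps12 had a fitted change of 0.22.

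On the lower side of the small subunit, Rps14, whose loss underlies the anaemia of the 5q- syndrome, stood at 267, 278 and 299 CPM in the controls. It stood at 224, 189 and 270 CPM in the PP-MP libraries, where PP-MP 3 lay just inside the control range. The log2 fold change was −0.31 (SE 0.17, adjusted p = 0.47), and it was −0.19 without PP-MP 2. Rps2, a protein of the mRNA entry region, stood at 512, 509 and 530 CPM in the controls and at 397, 422 and 500 CPM in the PP-MP libraries. All 3 PP-MP values lay below all 3 controls, and the spread of the controls was small (517 ± 11.0 against 440 ± 53.8, SD, n = 3). The log2 fold change was −0.23 (SE 0.15, adjusted p = 0.52), and over the alternatives it ran from −0.34 to −0.0054. Rps15 and Rps26 had fitted changes of −0.25 and −0.15, which were −0.15 and −0.03 without PP-MP 2, −0.17 and −0.07 without control 3, and −0.27 for Rps26 without PP-MP 3.

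Groups without overlap, read from TMM-scaled CPM, were found for 4 of the 85 genes (4.71%), against 22.0% of all genes tested. Rps2 was the only one lower in PP-MP (9.79% of all genes), and Rpl22l1, Rpl3 and Rpl7 were higher (12.2% of all genes). How this contrast stands under library totals was not tested. Rpl3, which reaches towards the peptidyl transferase centre, stood at 173, 165 and 158 CPM in the controls and at 180, 174 and 198 CPM in the PP-MP libraries. Its groups were separated by a narrow margin, between control 1 and PP-MP 2, and the log2 fold change was 0.15 (SE 0.13, adjusted p = 0.62), or 0.10 without PP-MP 3. Rpl7 stood at 212, 220 and 211 CPM in the controls and at 246, 222 and 271 CPM in the PP-MP libraries (log2 fold change 0.20, SE 0.14, adjusted p = 0.55), with a change of 0.13 without PP-MP 3.

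**Figure D3:**
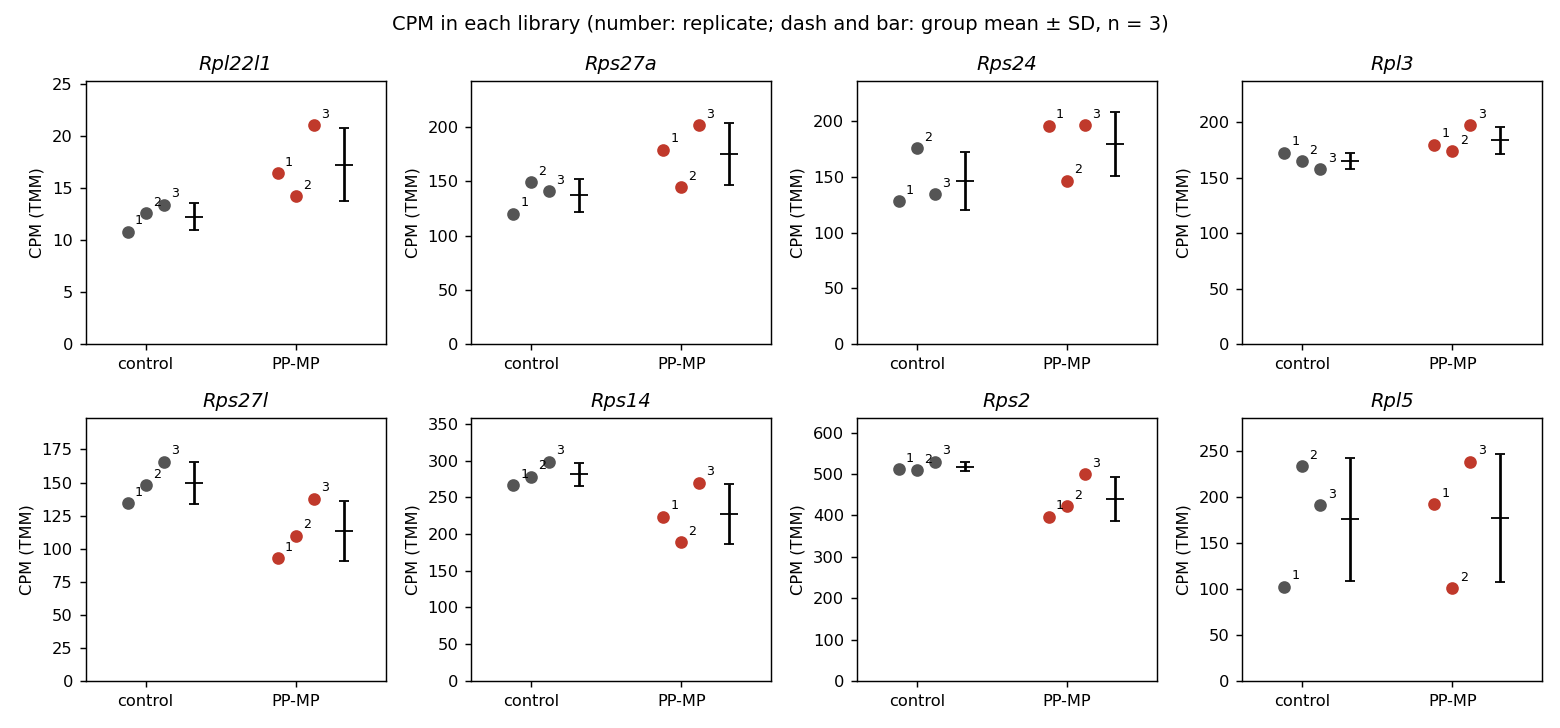
TMM-scaled CPM (vertical axis, from 0) of 8 genes in each library, with the replicate number beside each point and the group mean ± SD (n = 3) at its right. Rpl22l1, Rpl3 and Rps2 show groups that do not overlap, and Rpl5 shows a low library and 2 higher ones in each diet.

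Among the 43 standard large subunit genes outside the stalk, 26 were fitted higher and 17 lower, with a median of 0.02 and a range of −0.20 to 0.28. The largest fitted changes upward were in Rpl17 (0.28), Rpl4 (0.22), Rpl7 (0.20), Rpl23 (0.20) and Rpl12 (0.17). Those downward were in Rpl38 (−0.20), Rpl18 (−0.19) and Rpl19 (−0.19). Rpl17 stood at 123, 196 and 171 CPM in the controls and at 215, 171 and 210 CPM in the PP-MP libraries, with control 1 apart below the other 5. Without control 1 the change was 0.13 for both Rpl17 and Rpl4, and without control 2 it was 0.45 and 0.35. Rpl23 had 0.31 and Rpl12 0.29 without PP-MP 2, and Rpl12 had 0.11 without PP-MP 1 or without PP-MP 3. Rpl38 ran from −0.06 (without PP-MP 2) to −0.32 (without PP-MP 3) and was −0.08 without control 3. Rpl18 ran from −0.11 (without PP-MP 1) to −0.34 (without PP-MP 3), and Rpl19 from −0.11 (without PP-MP 2) to −0.29 (without PP-MP 3).

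Rpl5 was the standard gene with the widest spread within the diets. Its protein binds 5S ribosomal RNA together with Rpl11, in a particle that can bind and inhibit Mdm2, the ubiquitin ligase of p53. It stood at 103, 234 and 192 CPM in control 1, 2 and 3 (176 ± 66.9, SD, n = 3) and at 193, 101 and 239 CPM in PP-MP 1, 2 and 3 (178 ± 70.1, SD, n = 3). Control 1 and PP-MP 2 were low by about the same amount and the highest library was 2.36 times the lowest, whereas the group means were nearly equal. The log2 fold change was 0.01 with a standard error of 0.40 (adjusted p = 0.99). The SD within groups was 0.63 on the log2 scale, against a median of 0.17 over the genes. Rpl11, its partner, stood at 201, 231 and 232 CPM in the controls and at 219, 189 and 254 CPM in the PP-MP libraries and did not show the 2 low libraries to that degree. Rpl22 (91.7 and 91.9 CPM in control 1 and PP-MP 2, 106 to 115 in the others) and Rpl23a (134 and 136, against 158 to 174) were lowest in the same libraries. Their correlations with Rpl5 over the 6 libraries were 0.99 each. Both were picked from the top of a ranking of tested genes by this correlation, after the values were seen. Rpl5 shares exonic positions with the opposite-strand gene Fam69a (Dipk1a, 6.12 to 10.5 CPM), and whether the counting used strand is not stated in the sources used here.

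The 3 P-stalk genes were all fitted slightly lower, and none passed the test. Rplp0, the stalk base, stood at 372, 325 and 355 CPM in the controls and at 337, 300 and 339 CPM in the PP-MP libraries (log2 fold change −0.11, SE 0.14, adjusted p = 0.75). Rplp1 had −0.11 and Rplp2 −0.18. The change of Rplp2 was −0.09 without control 1, −0.11 without control 3 and −0.10 without PP-MP 2, and −0.27 without control 2 and −0.28 without PP-MP 3. A downward fit was also found for 47.4% of all genes tested. Among the 1181 other genes at the level of the standard ones, 917 were fitted lower.

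The paralogs gave the largest fitted changes in both directions, and none passed the test. Of the 8 genes in the paralog list, 5 were tested, with 1 fitted higher and 4 lower. Rpl22l1 encodes a close relative of Rpl22, an RNA-binding ribosomal protein that is known to restrain Rpl22l1 expression. Rpl22l1 stood at 10.8, 12.6 and 13.4 CPM in the controls (12.3 ± 1.33, SD, n = 3) and at 16.4, 14.2 and 21.1 CPM in the PP-MP libraries (17.2 ± 3.49, SD, n = 3). All PP-MP values lay above all controls, with PP-MP 2 nearest to them. The log2 fold change was 0.49 (SE 0.19, unadjusted p = 0.036, adjusted p = 0.34 by edgeR). Over the alternatives the adjusted p ran from 0.13 to 0.67, and after removal of a trend with transcript GC content the log2 fold change was 0.19. Without PP-MP 3 it was 0.32. Rpl22 itself had a log2 fold change of 0.02 (SE 0.15). The antisense gene Gm33051, which overlaps Rpl22l1, reached at most 0.01 CPM.

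Rps27l encodes a relative of Rps27 and is known as a p53-inducible gene. It stood at 134, 148 and 166 CPM in the controls (149 ± 15.7, SD, n = 3) and at 92.9, 110 and 138 CPM in the PP-MP libraries (114 ± 22.7, SD, n = 3). PP-MP 3 lay above control 1, so the groups overlapped. The log2 fold change was −0.40 (SE 0.19, adjusted p = 0.40). Rps27 stood at 165, 173 and 204 CPM in the controls and at 212, 150 and 203 CPM in the PP-MP libraries, with a log2 fold change of 0.06 (SE 0.18). Rpl7l1 had a log2 fold change of −0.18 (−0.07 without PP-MP 1, −0.28 without PP-MP 3), Rps4l of −0.17 and Rpl36al of −0.07.

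The ratio of a paralog to its partner within a library does not depend on the scaling between libraries. Counts on Rpl22l1 were 11.8%, 11.3% and 12.6% of those on Rpl22 in control 1, 2 and 3 and 15.4%, 15.5% and 18.3% in the PP-MP libraries. All 3 PP-MP libraries were higher, by 0.46 on the log2 scale. Counts on Rps27l were 81.6%, 85.4% and 81.4% of those on Rps27 in the controls and 43.7%, 73.5% and 67.9% in the PP-MP libraries. The 3 PP-MP libraries were lower, with a difference of −0.46 that was −0.23 without PP-MP 1. Counts on Rpl7l1 were 22.8%, 23.3% and 22.2% of those on Rpl7 in the controls and 14.9%, 19.7% and 18.2% in the PP-MP libraries, a difference of −0.38. For Rpl36al to Rpl36a (−0.20) and Rps4l to Rps4x (−0.16) the groups overlapped. These 5 ratios are given as a description without a test. For single genes 22.0% of all tested showed no overlap, and no such share was computed for ratios between genes. Transcript GC content was 40.6% for Rpl22l1 and 47.3% for Rpl22, and 44.9% for Rps27l and 50.7% for Rps27. It was 49.2% for Rpl7l1 and 45.8% for Rpl7, and its part in the ratios was not tested.

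**Figure D4:**
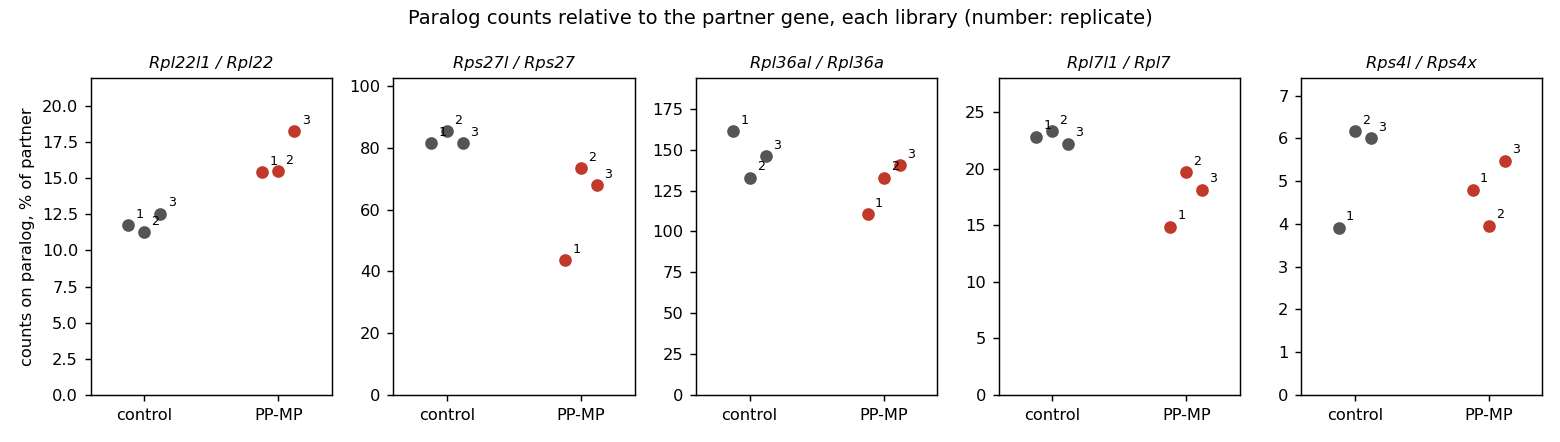
Counts on each paralog as a percentage of the counts on its partner gene (vertical axes, from 0), in each library, with replicate numbers beside the points. The ratio of Rpl22l1 to Rpl22 is higher in the 3 PP-MP libraries (15.4% to 18.3%) than in the controls (11.3% to 12.6%), and the ratios of Rps27l and Rpl7l1 to their partners are lower.

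How far reads could be shared between copies differed by gene. None of the 50-base stretches of the 8 listed paralogs was found in the transcript of the partner gene, and coding identity to the partner was 68.2% for Rpl22l1, 76.2% for Rps27l and 54.0% for Rpl7l1. Of the processed copies, Rps3a2 shared 76.7% of its 50-base stretches with Rps3a1, Rpl6l 61.8% with Rpl6, Rps3a3 49.6% with Rps3a1 and Rpl32l 19.4% with Rpl32. All 50-base stretches of Rps12l1 occur in Rps12, and that gene had 0 counts. The counts of these copies are therefore uncertain. The 310 rows named as pseudogenes of ribosomal proteins, of which 249 had a count, held 2.77 to 3.41 counts per 100 counts on the 89 genes (3.08 ± 0.318 in the controls and 3.11 ± 0.149 in PP-MP, SD, n = 3). Exonic positions were shared with another gene model in 39 of the 89 genes. In 23 it was a small nucleolar RNA on the same strand, and in 13 a protein-coding gene on the opposite strand.

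Other ribosomal proteins have symbols that do not follow the naming pattern, and 3 of them were read from the same fit. Rpsa, Rack1 and Fau (the last fused to a ubiquitin-like protein) had log2 fold changes of 0.04, 0.00 and −0.08, and none of the 3 passed the test. Of 78 mitochondrial ribosomal proteins, which build the separate ribosome of that organelle, 13 were fitted higher and 65 lower, with a median of −0.20. That median equals the one of the 1181 other genes at the level of the standard cytosolic ones, of which 264 were fitted higher and 917 lower. The levels of these sets were not matched. The 78 genes together summed to 1650 to 2387 CPM per library, whereas each of the 1181 had a mean of 70.1 to 478 CPM.

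Within the narrow range of fold changes, the order of the genes was partly related to the base composition of their transcripts. Across the 85 genes the log2 fold change correlated with transcript GC content with a Pearson r of −0.49 (Spearman −0.49), against −0.16 across 17328 tested genes with a transcript. Genes are not independent replicates, and all points share the same 6 libraries. The 21 genes of lowest GC content (40.6% to 48.3%) had a median of 0.12, with 18 fitted higher and 3 lower. The 21 of highest GC content (54.6% to 61.3%) had a median of −0.10, with 4 higher and 17 lower. By library, the correlation of the genes' deviations with GC content was 0.40, −0.06 and 0.41 for the controls in the order of their numbers and −0.23, −0.25 and −0.45 for the PP-MP libraries. Over all tested genes it was 0.34, −0.16 and 0.12 in the controls and −0.14, −0.04 and −0.14 in the PP-MP libraries. Rpl22l1 (40.6%) lay at the low end of GC content, and Rps27l (44.9%) went against the trend. With a trend of fold change on GC content removed, Rps27l had −0.52 (adjusted p = 0.31) and Rpl22l1 0.19 (adjusted p = 0.67). The part of base composition in these differences was not tested.

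**Figure D5:**
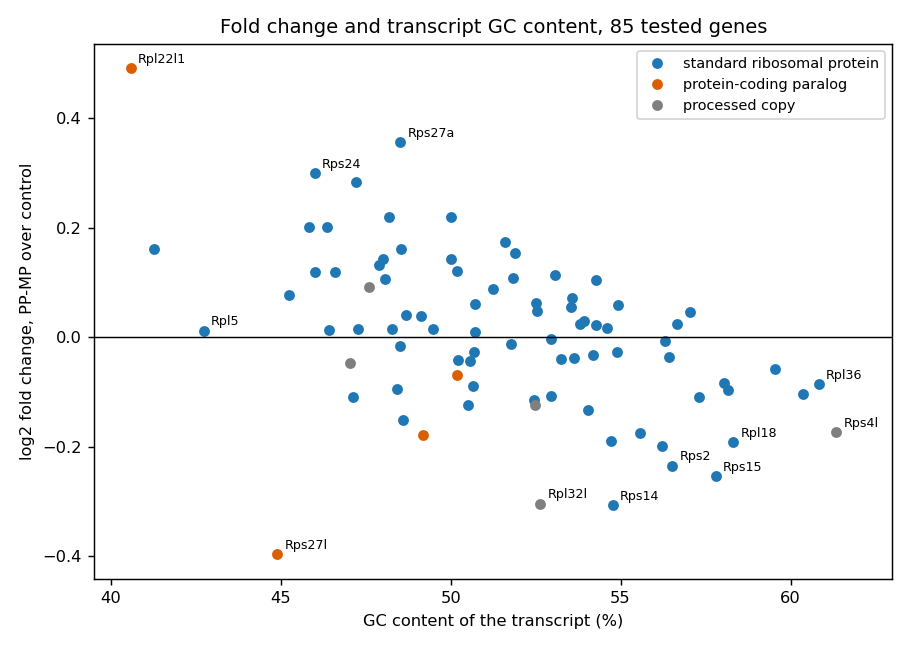
Log2 fold change of PP-MP over control (vertical axis) against the GC content of the transcript in percent (horizontal axis) for the 85 tested genes, coloured by kind. The points slope downward (r = −0.49), with Rpl22l1 at the upper left and Rps27l below the others at low GC content.

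The machinery around the ribosome was read from lists of genes for translation and ribosome assembly. None of the members of these lists passed the edgeR test, against 0.0109% of all genes. Other TOP mRNAs (17 tested, median −0.11) had 7 genes fitted higher and 10 lower. Of these, Tpt1, a growth-related TOP mRNA, stood at 473, 700 and 575 CPM in the controls and at 759, 645 and 765 CPM in the PP-MP libraries (log2 fold change 0.31, adjusted p = 0.50). Eef1d, an elongation factor subunit, stood at 28.7, 17.2 and 23.1 CPM in the controls and at 15.1, 17.0 and 14.2 CPM in the PP-MP libraries, without overlap (−0.58, adjusted p = 0.32). Groups without overlap made up 11.8% of these TOP mRNAs, against 22.0% of all genes tested.

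Of 30 translation initiation factors (median −0.07), 10 were fitted higher and 20 lower. Eif4a2, a helicase of the cap-binding complex, stood at 169, 197 and 196 CPM in the controls and at 131, 131 and 139 CPM in the PP-MP libraries (−0.49, SE 0.13, adjusted p = 0.24 by edgeR). DESeq2 called this gene lower. It was 1 of 2 calls by DESeq2 among 186 tested genes of these lists, against 4.25% of all genes. Eif4g1, the scaffold of the same complex, stood at 108, 73.5 and 134 CPM in the controls and at 166, 166 and 158 CPM in the PP-MP libraries (0.64, SE 0.23, adjusted p = 0.32). The groups of both genes did not overlap, in opposite directions.

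Large subunit assembly factors (30 tested, 15 fitted higher and 15 lower, median −0.02) and small subunit assembly factors (36 tested, 17 higher and 19 lower, median −0.01) had medians near that of the ribosomal proteins. Gnl2, a nucleolar GTPase of large subunit assembly, stood at 17.1, 19.4 and 19.8 CPM in the controls and at 26.5, 23.7 and 27.2 CPM in the PP-MP libraries (0.46, adjusted p = 0.25). Pwp2, a component of the small subunit processome, stood at 14.0, 10.8 and 13.9 CPM in the controls and at 7.23, 9.85 and 8.68 CPM in the PP-MP libraries (−0.59, adjusted p = 0.28). Neither pair of groups overlapped. This was so for 16.7% of the large subunit and 19.4% of the small subunit assembly factors, against 22.0% of all genes tested. The 12 snoRNP and rRNA modification genes had a median of −0.27, with 2 fitted higher and 10 lower. Nop10, a subunit of the pseudouridylation particle, had −0.51 (adjusted p = 0.28).

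Of 13 RNA polymerase I genes tested (median 0.09), 8 were fitted higher and 5 lower. Taf1d, a subunit of the promoter selectivity factor of that polymerase, stood at 6.24, 10.6 and 5.86 CPM in the controls and at 15.5, 14.7 and 18.8 CPM in the PP-MP libraries. Its groups did not overlap, as for 23.1% of this list and 22.0% of all genes tested. The log2 fold change was 1.11 (SE 0.26, adjusted p = 0.21 by edgeR). Taf1d was called higher by DESeq2 (4.25% of all genes called) and by edgeR without control 2 (0.477% of all genes called). The 6 chaperones of single ribosomal proteins were all fitted lower (median −0.17), against 47.4% of all genes tested. Of 16 genes of mTORC1 and TOP control (median −0.11), 4 were fitted higher and 12 lower. Eif4ebp3, a repressor of cap-dependent translation, had 46.4 CPM in PP-MP 1 and 2.09 to 8.89 CPM in the other 5 libraries. Genes of ribosome quality control (13 tested) had a median of 0.00 (6 fitted higher, 7 lower), and transcription factors of ribosomal protein promoters (9 tested) one of 0.10 (6 higher, 3 lower).

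Markers of other cell types varied between libraries in another order than the ribosomal proteins. Summed over 8 genes each, macrophage markers were at 142, 139 and 160 CPM in the controls and at 548, 312 and 155 CPM in the PP-MP libraries. B and plasma cell markers were at 41.3, 185 and 19.7 CPM in the controls and at 582, 125 and 42.3 CPM in the PP-MP libraries. Of these 8 genes, 6 were fitted lower (median of the list −0.60), and the sums above 100 CPM came mainly from the immunoglobulin genes Igkc (125 CPM in control 2, 193 in PP-MP 1, 46.3 in PP-MP 2) and Ighm (338 CPM in PP-MP 1, 57.6 in PP-MP 2). Neutrophil markers were at 0.69 to 0.98 CPM in the controls and at 2.38 to 21.7 CPM in the PP-MP libraries. Ly6g, Camp and Mpo were at 0 in all controls and in PP-MP 3. Summed hepatocyte markers were at 77342, 68269 and 75642 CPM in the controls and at 73749, 76218 and 85461 CPM in the PP-MP libraries. PP-MP 3 was highest both in this sum and in ribosomal protein mRNA. PP-MP 2, lowest in ribosomal protein mRNA, was not low in this sum, where control 2 was lowest. Most of the sum was Alb, the albumin gene (58012 CPM in PP-MP 3 and 53062 CPM in PP-MP 2). The part of cell makeup in the levels above was not tested.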

How the data were processed

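Poly(A) RNA from liver was sequenced from directional libraries in 6 samples, 3 per diet, per the labels' protocols. The authors deposited raw read counts per gene (6 per-sample files identical to the columns of the joint table). Per the submitters' processing notes, bcl2fastq and GRCm39 were used, without versions. For the aligner, the counting tool, its strand setting and the annotation: not given in the sources used here. Members and lists (13 gene lists, 10 marker lists) were chosen with earlier results of these data known.

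Low counts were removed with filterByExpr (by group) and libraries scaled by TMM. The test was edgeR's quasi-likelihood F test with robust dispersions (edgeR 4.0.16, R 4.3.3), two-sided, on all 6 samples, no covariate, Benjamini-Hochberg over 18284 genes, threshold 0.05. Standard errors and 95% intervals come from that fit. CPM use TMM-scaled totals, and deviations use log2 (CPM + 0.1). Total counts per library (68357478 to 112566641) make counting error small beside the spread between libraries. Genes named are the 10 of smallest p in each direction, paralogs and partners, the P-stalk, the 5 highest and lowest per kilobase, and up to 4 per list. Rpl11, Rpl21, Rpl23a, Rap2c, Nr3c1, Bmpr2, Igkc, Ighm, Selenos, Selenok and overlapping genes were named after their values were seen. Transcripts (length, GC content, 50-base sharing) came from GENCODE M21 (GRCm38), matched by symbol for 89 of 89 genes. Promoters came from RefSeq (GRCm38.p6). Of 200 list entries, 198 matched, and 1 gene of the lists is not reported here.

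Alternatives were DESeq2 size factors, library totals, no filter, a mean CPM of at least 1, DESeq2 1.42.0, limma-voom (limma 3.58.1), a replicate block, a threshold of 0.1, data without mitochondrial and haemoglobin, ribosomal RNA or pseudogene rows, pseudogene counts added to the parent gene, a length trend removed (lowess span 0.3), control 2 and PP-MP 1 left out together and each library left out. Removal of a GC trend and leaving libraries out of the paralog ratios were added after seeing the data. The fit was tested on simulated data. Tables and figures were made in Python 3.11.15 (matplotlib 3.10.9, NumPy 2.4.6, pandas 2.3.3, SciPy 1.17.1).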

Additional observations from a re-analysis of the deposited data

How the results depend on the processing

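No ribosomal protein gene passed the threshold under any of the 21 alternatives. The median log2 fold change of the tested genes stayed between −0.09 (without PP-MP replicate 3) and 0.11 (without PP-MP replicate 2), except when libraries were scaled by their totals alone, where it was 0.24 while the median of all genes moved from 0.03 to 0.26. Under library totals, Rpl19 (0.037), Rpl7l1 (0.054), Rpl18 (0.035), Rpl38 (0.025), Rplp2 (0.048) and Rps26 (0.075) changed sign, and relative to the shift of all genes they stayed lower. Over all alternatives, Rps2 and Rps15 kept their sign but came as near to 0 as −0.0054 and −0.026. Genes of the translation and assembly lists past the threshold numbered 2 with DESeq2 (Eif4a2, Taf1d) and 0 to 1 with a library left out (Taf1d without control replicate 2). With the replicate number as a block, 0 ribosomal protein genes passed, their median was 0.01, and 0 genes of the whole table passed against 2. Same-numbered samples correlated at −0.0662, −0.0872 and 0.0470, and the labels do not pair them. Genes past the threshold in the whole table ran from 0 to 92 with a library left out (92 without control replicate 2), and 777 passed with DESeq2.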

Other observations

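Tested genes with a mean of at least 10 CPM were ranked by the Pearson correlation of their log2 level with Rpl5 over the 6 libraries. The transcripts below come from the top of that ranking. They are therefore low in control 1 and PP-MP 2, the libraries low in Rpl5, by selection, and were listed after their values were seen. Rap2c, a small GTPase, stood at 1.03 and 1.91 CPM in these 2 libraries and at 19.4 to 23.0 CPM in the other 4 libraries. Nr3c1, the glucocorticoid receptor, stood at 4.06 and 4.15 CPM in these libraries and at 12.2 to 31.2 CPM in the others. Bmpr2, a receptor for bone morphogenetic proteins, stood at 11.1 and 11.4 CPM against 23.8 to 37.2 CPM. The selenoprotein genes Selenos (35.3 and 36.7 against 48.2 to 51.5 CPM) and Selenok (46.5 and 44.9 against 51.4 to 54.4 CPM) and the ribosomal protein genes Rps7 (137 and 140 against 176 to 187 CPM) and Rpl21 (129 and 125 against 144 to 163 CPM) showed the same order with smaller differences. The 2 libraries are of different diets, and whether anything beyond this selection sets them apart was not tested.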
